A study of Homo sapiens with 23 samples.

Results

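The S100 genes and the epidermal differentiation genes lie together on chromosome 1q21, and 33 genes of this stretch were examined in 4 ovarian cancer cell lines, Kuramochi, OVSAHO, OV-90 and EFO-21, each as a parental line and as a line resistant to prexasertib. The 33 genes span chr1:151955391-153643504 (GRCh37). They were chosen by name from a locus noticed in the resistant and parental values of these same libraries, so differences between resistant and parental libraries are given below as a description, without p-values. Of the 33 genes, 24 have a value among the 21658 genes of the table. These are 13 S100 genes, 5 genes of the S100-fused type (FLG, FLG2, HRNR, TCHH and CRNN), 3 cornified envelope precursors (SPRR2A, SPRR2D and SPRR2E) and 3 neighbours of general function (CHTOP, SNAPIN and ILF2). The other 9, namely S100A7, TCHHL1, IVL, LORICRIN, SPRR1A, SPRR1B, SPRR3, PGLYRP3 and PGLYRP4, are not analysed here.

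Prexasertib inhibits the checkpoint kinase CHK1. The resistant lines came from long culture under rising drug concentrations, and the parental lines are the cells they came from. Whether a resistant line is a pool or a clone is not given in the sources used here, and each line was made resistant in a single derivation as far as the labels show. Each of the 8 groups has 3 libraries, except parental OV-90 with 2, which gives 23 RNA-seq libraries in all. The libraries are described as biological replicates, so the spread between them is that of cultures of 1 line, not of independently derived resistant lines.

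S100 proteins are small calcium-binding proteins that act inside cells on the cytoskeleton, annexins and membrane repair, and some are released as inflammatory signals. The S100-fused-type proteins carry an S100 domain in front of long repeats and are known from the granules of skin and hair. The small proline-rich (SPRR) proteins are cross-linked by transglutaminases into the tough envelope of cornified cells. In ovarian carcinoma several S100 genes are expressed by tumour cells, whereas the fused-type and SPRR genes are usually read as signs of squamous or skin cells.

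Values are log2 expression after quantile normalization, so a difference of 1 is a 2-fold change. A value at or below the 10th percentile of its library, between 1.70 and 1.87, is called the bottom here. Genes without signal share a commonest value of 0 to 0.22 in each library. Levels are compared between libraries only, since they are not given per length of a gene. A gene was called different between groups at an adjusted p under 0.05 (limma, Benjamini-Hochberg over all genes) and a difference of at least 2-fold.

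Before the genes themselves, 5 libraries stood apart. The 5 measured plasma cell markers (IGHA1, IGHG1, IGKC, IGLC2 and IGLC3), which encode immunoglobulin chains, were all above the bottom in OV-90 parental library 2, in Kuramochi parental library 6 and in OVSAHO parental libraries 7, 8 and 9. Their mean lay between 6.41 and 8.04 in these 5 libraries and between 0.01 and 1.52 in the other 18, where at most 2 of the 5 were above the bottom. Among the keratins KRT14 ran alongside, while KRT5 and KRT17 separated less in Kuramochi. KRT5 was 5.73, 5.75 and 7.13 in Kuramochi libraries 4, 5 and 6, and KRT17 was 6.95, 7.45 and 7.83. KRT14 was 7.02 in OV-90 library 2 against 1.43 in library 3, 6.79 in Kuramochi library 6 against 1.91 and 2.37 in libraries 5 and 4, and 6.73 to 7.16 in the OVSAHO parental libraries against 0.61 to 1.0 in resistant OVSAHO. The 3 erythroid markers were less clear. HBB, the beta chain of haemoglobin, was 4.68 to 6.76 in the 5 libraries and at most 4.21 in the others, but HBA1 and HBA2, the alpha chains, did not separate the 5 libraries from the rest, with HBA1 at 6.36 to 6.48 in resistant OV-90 and 5.96 to 6.53 in parental OVSAHO. In OVSAHO every parental library had all 5 plasma cell markers above the bottom, and the resistant ones had none but IGKC at 2.33 in library 20, so a high level of these markers and the parental state cannot be told apart there. In EFO-21 the mean of the plasma cell markers was 0.27 to 0.28 in parental and 1.30 to 1.52 in resistant libraries.

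In Kuramochi and OV-90 the libraries of 1 group can be set against each other. Library 2 exceeded library 3 of parental OV-90 by over 2 on the log2 scale at 4 of the 24 genes (S100A8, FLG2, HRNR and CRNN), against 1.90% of all genes, and was lower by over 2 at 1 gene (S100A9), against 2.22% of all genes. Library 6 exceeded the mean of Kuramochi parental libraries 4 and 5 by over 2 at 4 genes (S100A8, SPRR2A, SPRR2D and SPRR2E), against 0.540% of all genes, and was lower at 1 (FLG), against 0.965%. As the genes were chosen, and libraries 2 and 6 singled out, with these same values known, nothing is read from these shares. The 13 ovarian carcinoma markers had a median difference of 0.42 in OV-90, where 1 exceeded 2 (EMX2, at 2.06 in library 2 and -0.01 in library 3), and of 0.08 in Kuramochi, where none did. The heat map of all members by library shows both patterns.

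**Figure D1:**
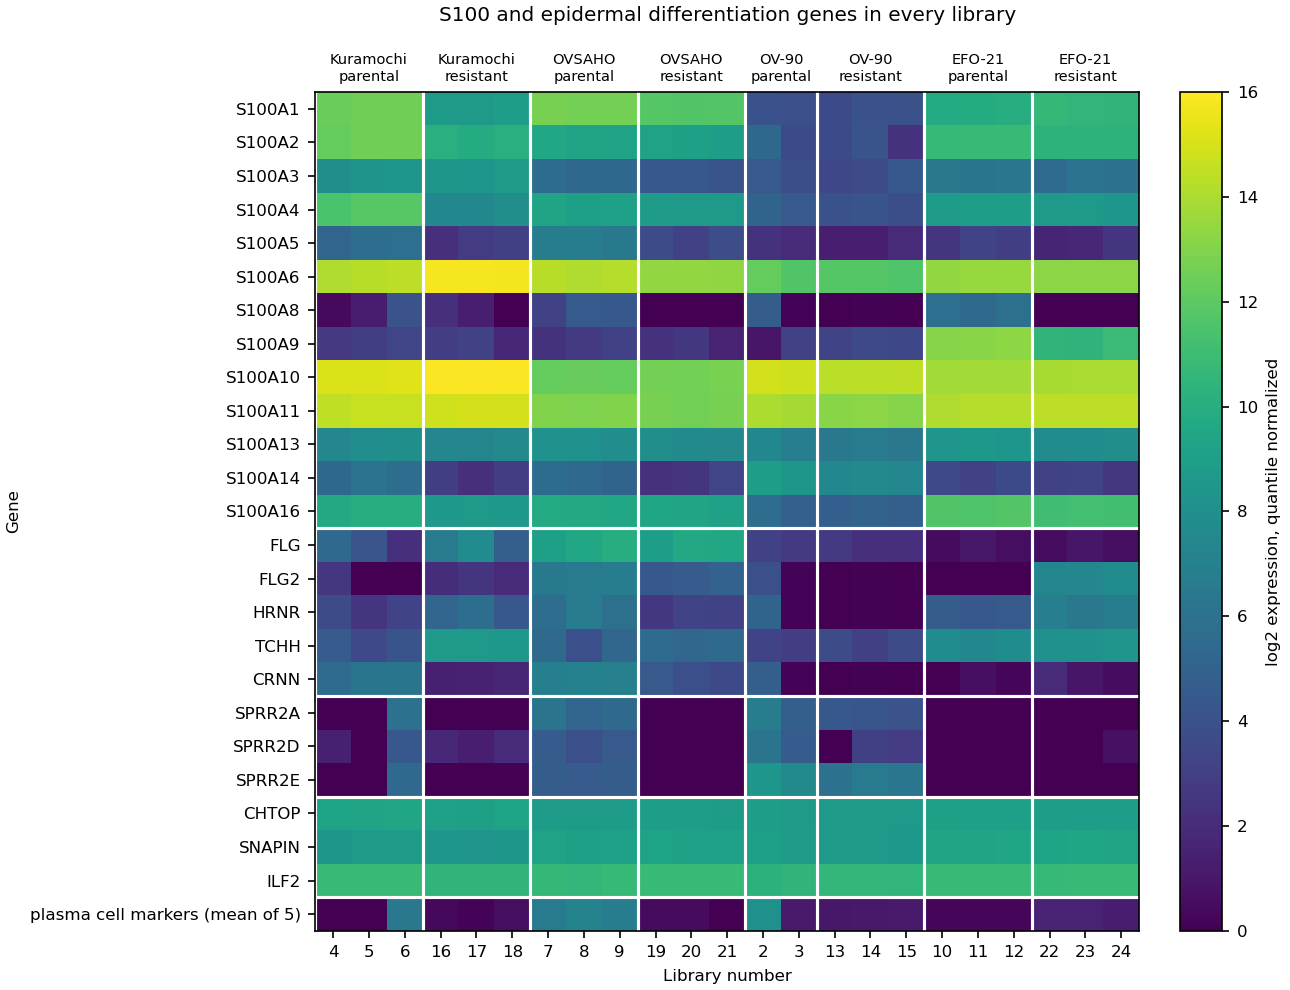
Log2 expression of the 24 measured genes in the 23 libraries, 1 column a library and 1 row a gene, with the mean of 5 plasma cell markers in the bottom row. Libraries 2, 6, 7, 8 and 9 have a plasma cell marker mean of 6.41 to 8.04, and CHTOP, SNAPIN and ILF2 are nearly even across all columns.

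The labelled cell type was checked with 13 ovarian carcinoma markers. PAX8, SOX17, EMX2 and MSLN were high in Kuramochi, OVSAHO and EFO-21, except that EMX2 was 1.02 to 1.76 in resistant Kuramochi. OV-90 had PAX8 at 1.77 to 2.43, WT1 at 1.47 to 2.09 and MSLN at -0.07 to 1.22, so these defining markers were near the bottom in that line, while EPCAM was 12.14 to 12.45. In OV-90 FOLR1 was 7.74 to 8.91, MECOM 6.44 to 7.86, and KRT8, KRT18 and KRT19 lay between 10.94 and 13.44. EFO-21 had WT1 at 0.00 to 1.21.

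The 3 SPRR2 genes are shown first by sequence, because their values cannot be assigned cleanly to 1 gene. Each has a coding sequence of 216 bases without its stop codon in 1 exon on the minus strand. The sequences below were read from GRCh37, with the coding intervals of GENCODE, and are given 5′ to 3′ in coding direction with the 6 positions at which the 3 differ in capitals.
SPRR2A, chr1:153028996-153029211, minus strand: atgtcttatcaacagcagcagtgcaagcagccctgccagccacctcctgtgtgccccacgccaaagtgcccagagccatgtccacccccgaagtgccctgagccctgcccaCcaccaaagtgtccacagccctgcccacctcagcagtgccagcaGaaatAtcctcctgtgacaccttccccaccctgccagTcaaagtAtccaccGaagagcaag
SPRR2D, chr1:153012607-153012822, minus strand: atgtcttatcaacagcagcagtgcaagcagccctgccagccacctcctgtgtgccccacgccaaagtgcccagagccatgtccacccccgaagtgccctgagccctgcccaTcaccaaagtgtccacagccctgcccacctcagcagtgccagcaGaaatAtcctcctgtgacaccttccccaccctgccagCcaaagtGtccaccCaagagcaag
SPRR2E, chr1:153066012-153066227, minus strand: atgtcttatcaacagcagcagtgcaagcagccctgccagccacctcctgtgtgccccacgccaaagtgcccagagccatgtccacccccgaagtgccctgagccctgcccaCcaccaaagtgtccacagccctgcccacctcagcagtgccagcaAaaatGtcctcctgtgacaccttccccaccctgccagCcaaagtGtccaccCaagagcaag

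SPRR2A and SPRR2D are identical at 98.1% of these bases, SPRR2A and SPRR2E at 97.7%, and SPRR2D and SPRR2E at 98.6%. The longest run without a difference is 155 bases between SPRR2A and SPRR2E, longer than a read of 150 bases, and 111 bases for the other pairs among the 3. SPRR2B, a neighbour outside the list, differs from SPRR2A at 1 base and shares a run of 192 bases with it. SPRR2F, another neighbour, is 96.8% to 98.1% identical to the 3 and was at 12.35 to 13.74 in the OV-90 libraries. Its longest runs shared with SPRR2A, SPRR2D and SPRR2E are 57, 57 and 60 bases, shorter than a read. Only coding bases were compared. How reads that match several copies were counted is not given in the sources used here, so values of single SPRR2 genes are uncertain. Whether OV-90 values share reads with SPRR2F was not tested.

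Between resistant and parental libraries, 10 of the 24 genes were called in Kuramochi (3 higher and 7 lower; 22.5% of all genes were called), 10 in OVSAHO (all lower; 7.76% of all genes), 2 in OV-90 (both lower; 16.1% of all genes) and 4 in EFO-21 (2 higher and 2 lower; 14.3% of all genes). As the genes were chosen on this contrast, nothing is read from these shares. The median difference of the 24 genes was -0.33, -0.69, -0.66 and -0.03 in that order of lines, beside -0.02, 0.00, -0.06 and 0.01 for all genes. No gene was called in all 4 lines, 2 were called in 3 lines (S100A14 and HRNR), 5 in 2 lines, 10 in 1 line and 7 in none. In OV-90 both calls rest on 5 libraries: the count became 0 without any single resistant library and 10 without parental library 3, which leaves library 2 as the only parental one. Without OV-90 library 2 it stayed at 2, and without Kuramochi library 6 the Kuramochi count stayed at 10.

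**Figure D2:**
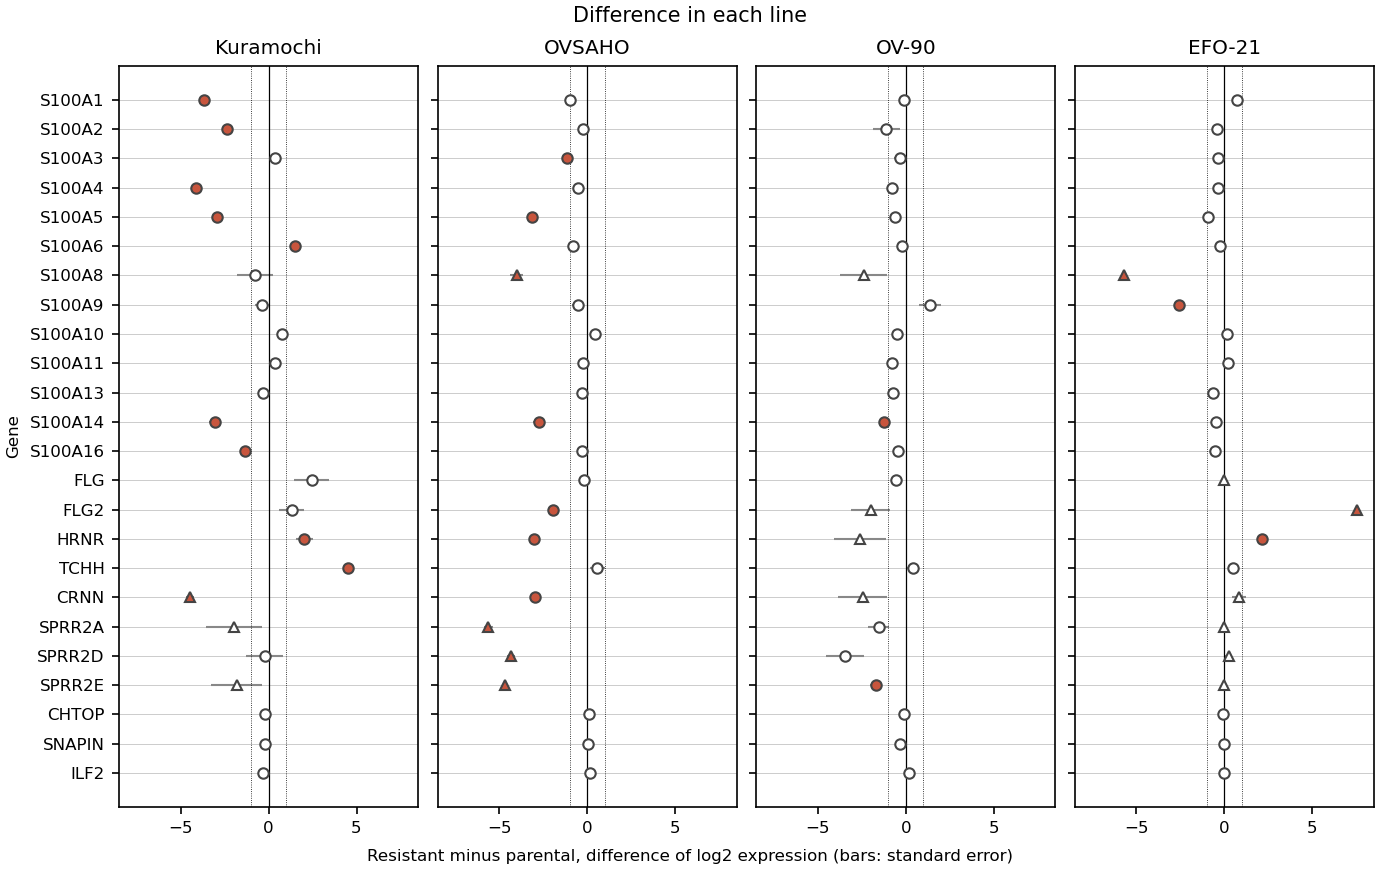
Resistant minus parental difference of log2 expression for each gene in each line, with its standard error as a bar. Filled symbols were called (10 in Kuramochi, 10 in OVSAHO, 2 in OV-90 and 4 in EFO-21), triangles mark genes whose libraries in 1 or both groups all lie at the bottom, for which the difference is not a measured fold, and dotted lines mark a 2-fold difference.

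Among the S100 genes, Kuramochi showed the most calls, with 6 of 13 lower and 1 higher in resistant libraries. Its share of all genes called was also the largest, at 22.5% against 7.76% in OVSAHO, 16.1% in OV-90 and 14.3% in EFO-21. Nothing is read from this count. S100A4, which binds non-muscle myosin and is linked to cell motility, was 11.48, 11.85 and 11.86 in the parental libraries and 7.46, 7.46 and 7.89 in the resistant ones. The groups do not overlap, and the difference was -4.12 (SE 0.16), a 17.4-fold lower level. In the other lines S100A4 differed by less than 2-fold, from 9.11 to 9.35 down to 8.62 to 8.79 in OVSAHO and from 8.79 to 8.97 down to 8.38 to 8.62 in EFO-21.

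S100A1, a calcium sensor best known from muscle, was 12.32, 12.50 and 12.50 in parental Kuramochi and 8.68, 8.70 and 8.94 in resistant Kuramochi. That difference of -3.67 (SE 0.09) is a 12.7-fold lower level. In OVSAHO the values went from 12.65, 12.69 and 12.74 to 11.67, 11.72 and 11.81, lower in every library but short of 2-fold. In EFO-21 they ran the other way, from 9.75, 9.87 and 9.95 to 10.49, 10.56 and 10.66, again short of 2-fold. OV-90 had little S100A1 in either form, with 3.59 to 4.02 over its 5 libraries. The S100A1 gene overlaps S100A13 on the opposite strand over 3435 bases of their spans, and whether counting used strand is not given in the sources used here.

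S100A2, a gene of squamous and basal epithelia, was 12.25, 12.51 and 12.54 in parental and 9.86, 10.13 and 10.13 in resistant Kuramochi, a difference of -2.40 (SE 0.11). It was not called in the other lines, where EFO-21 stayed between 10.34 and 10.82 and OVSAHO between 8.99 and 9.53. In OV-90 it was scattered, from 2.33 to 4.15 in resistant libraries and 3.62 and 5.33 in parental ones, and the groups overlapped. S100A16, a widely expressed member, was 9.64, 9.97 and 9.98 in parental and 8.52, 8.53 and 8.56 in resistant Kuramochi, a difference of -1.32 (SE 0.10).

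S100A14, an epithelial member, was called lower in 3 lines. In parental Kuramochi it was 5.37, 5.76 and 6.11 and in resistant Kuramochi 2.15, 2.91 and 2.98, a difference of -3.06 (SE 0.31). In OVSAHO it went from 5.18, 5.45 and 5.68 to 2.28, 2.40 and 3.34, a difference of -2.76 (SE 0.32). In OV-90 it was 8.94 and 8.47 in parental and 7.35, 7.49 and 7.53 in resistant libraries, a difference of -1.24 (SE 0.16). EFO-21 was low in both forms, with 3.15 to 3.60 against 2.52 to 3.22, and the groups overlapped. S100A14 thus moved in the same direction in the 3 lines in which its parental level was above 5.

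S100A5, a little-studied calcium-, zinc- and copper-binding member, was called lower in 2 lines. Parental OVSAHO had 6.47, 6.73 and 6.78 and resistant OVSAHO 3.15, 3.66 and 3.79, a difference of -3.13 (SE 0.20). Parental Kuramochi had 5.22, 5.81 and 5.84 and resistant Kuramochi 2.18, 2.83 and 3.04, a difference of -2.94 (SE 0.30). In OV-90 and EFO-21 it did not exceed 3.28 in any library. S100A3, known from hair cuticle, was called lower in OVSAHO, from 5.39 to 5.63 down to 4.17 to 4.41, and lay between 7.88 and 8.74 over both forms of Kuramochi. The S100A3 and S100A4 gene spans overlap on the same strand over 1930 bases, yet in Kuramochi the S100A4 value was lower and the S100A3 value was not.

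S100A6 was the S100 gene called higher. It encodes calcyclin, which binds annexins and the ubiquitin ligase adaptor CACYBP. Parental Kuramochi had 14.12, 14.29 and 14.42 and resistant Kuramochi 15.72, 15.75 and 15.78, a difference of 1.47 (SE 0.10), or 2.78-fold. OVSAHO went the other way, from 14.11 to 14.25 down to 13.37 to 13.39, short of 2-fold. S100A10 and S100A11, the partners of annexin A2 and annexin A1, lay between 12.21 and 15.92 in every library, and neither was called in any line. S100A10 was higher in all 3 resistant Kuramochi libraries (15.90 to 15.92) than in the parental ones (15.14 to 15.19), and S100A13, which takes part in the release of FGF1, stayed between 6.34 and 8.55 throughout.

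**Figure D3:**
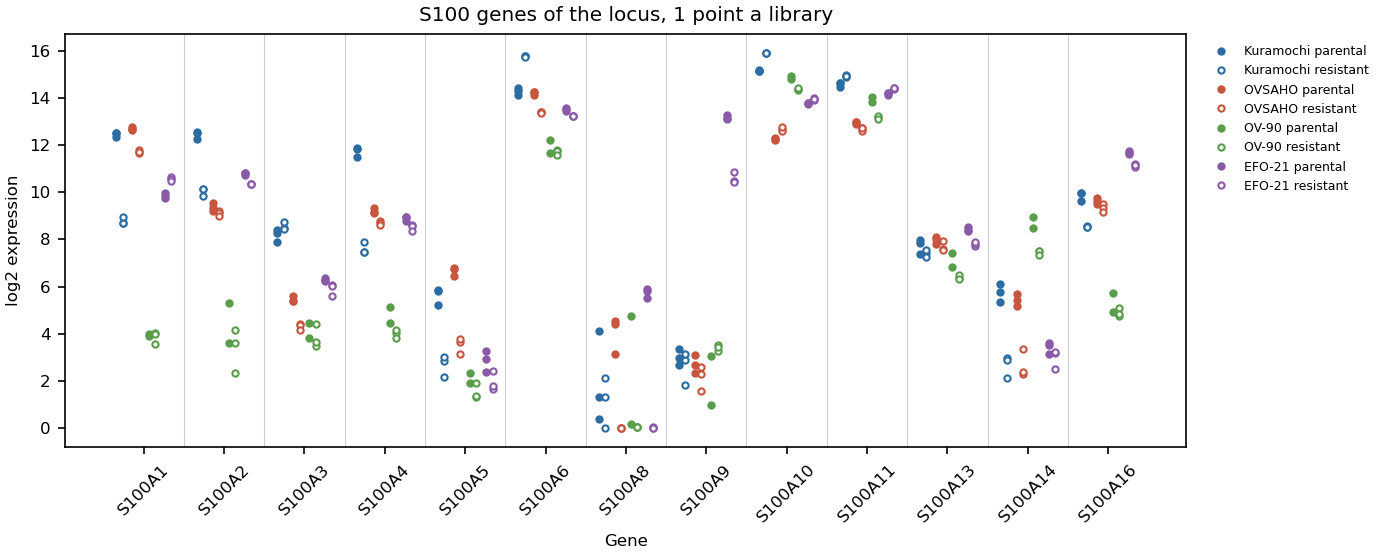
Log2 expression of the 13 S100 genes, with 1 point a library, colours for the 4 lines, filled points for parental and open points for resistant libraries. S100A1, S100A2, S100A4, S100A5 and S100A14 of Kuramochi separate by over 2, S100A9 is above 10 in EFO-21 and at most 3.54 elsewhere, and S100A10 and S100A11 are above 12 throughout.

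S100A8 and S100A9 are the subunits of calprotectin, a protein of neutrophils, monocytes and inflamed epithelia. Of the pair, S100A9 separated both forms of EFO-21 from the other lines, and S100A8 was highest in parental EFO-21 alone. S100A9 was 13.10, 13.14 and 13.26 in parental EFO-21 and 10.44, 10.46 and 10.88 in resistant EFO-21, a difference of -2.58 (SE 0.13), or 5.96-fold lower. S100A8 was 5.50, 5.83 and 5.89 in parental EFO-21 and 0.02, 0.03 and 0.04 in resistant EFO-21, where all libraries are at the bottom, so no fold is given. Elsewhere S100A9 was at most 3.54 in any library.

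The myeloid markers were mixed in EFO-21, and their part in the S100A8 and S100A9 values was not tested. CSF3R, the receptor for the growth factor of neutrophils, was 0.04 to 0.14 over the 6 EFO-21 libraries, and CSF1R, TYROBP and AIF1 were at most 0.06, 2.29 and 0.42. Of the 5 measured neutrophil markers, 4 were above the bottom in every parental EFO-21 library (FPR1 was 5.43 to 5.60) and 3 in the resistant ones, and the mean of the list was 3.21 to 3.78 against 2.54 to 3.03. Of the 7 monocyte and macrophage markers, 4 were above the bottom in parental and 2 to 3 in resistant EFO-21, with CD14 at 6.07 to 6.69 against 4.18 to 4.95. LTF, a secreted iron-binding protein of neutrophils and glands, was 3.91 to 4.48 in parental and 0.00 to 1.35 in resistant EFO-21. AZU1, a protein of neutrophil granules, went the other way, from 2.57 to 3.80 in parental to 3.98 to 4.61 in resistant EFO-21, and was called higher. Fewer cells with a gene and less RNA per cell cannot be told apart in such bulk libraries.

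Outside EFO-21, S100A8 was highest in the libraries with high plasma cell markers. In Kuramochi it was 0.40, 1.31 and 4.10 in parental libraries 4, 5 and 6 and 0.00, 1.32 and 2.13 in resistant ones, and it was not called. In OV-90 it was 4.74 in library 2 and 0.18 in library 3, and 0.06 to 0.07 in resistant libraries. In OVSAHO it was 3.16, 4.43 and 4.53 in parental libraries and 0.01 to 0.02 in resistant ones, and it was called lower. Thus in these 3 lines S100A8 was above 3 in the 5 libraries with all plasma cell markers above the bottom and at most 2.13 in the rest. Whether RNA of other cells has a part in this result was not tested. For OVSAHO a high level of the plasma cell markers cannot be told apart from the parental state.

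**Figure D4:**
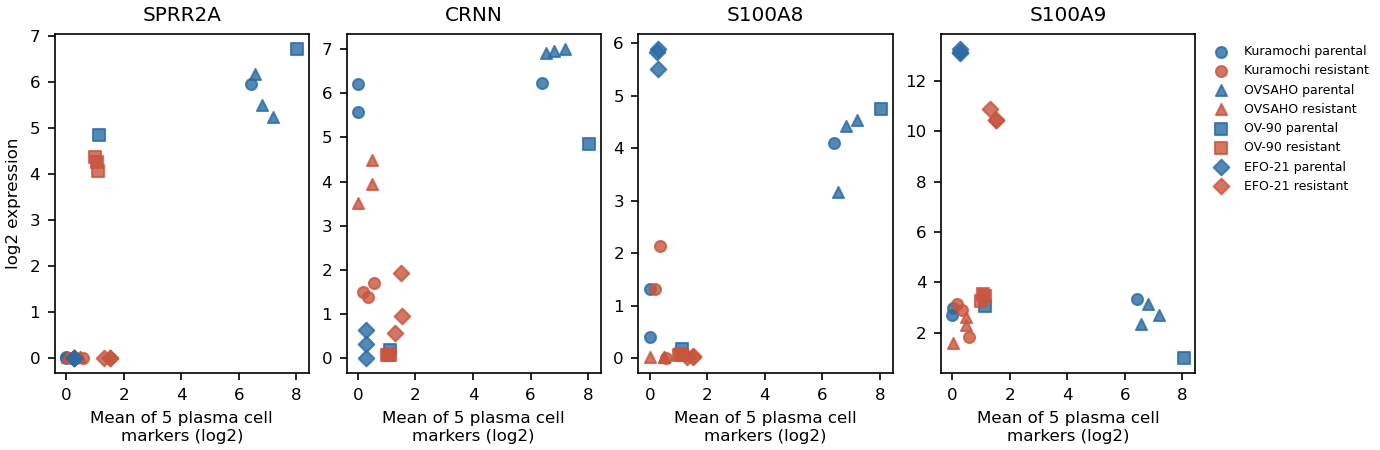
Log2 expression of SPRR2A, CRNN, S100A8 and S100A9 in each of the 23 libraries against the mean of 5 plasma cell markers in the same library, with a marker shape for each line and blue for parental and red for resistant. S100A8 of EFO-21 parental (5.50 to 5.89) and CRNN of Kuramochi libraries 4 and 5 (5.58 and 6.21) are high where the plasma cell markers are near 0, and SPRR2A of Kuramochi is high (5.95) in library 6 alone.

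Of the 5 fused-type genes, 2 were called higher and 1 lower in resistant Kuramochi, 3 lower in OVSAHO, none in OV-90 and 2 higher in EFO-21. The shares of all genes called were 22.5%, 7.76%, 16.1% and 14.3% in that order of lines, and nothing is read from these counts. For the 3 in OVSAHO (FLG2, HRNR and CRNN), whether RNA of other cells has a part was not tested. A high level of the plasma cell markers cannot be told apart from the parental state there. CRNN, or cornulin, a marker of differentiating squamous epithelium, was 5.58, 6.21 and 6.24 in parental Kuramochi and 1.39, 1.49 and 1.69 in resistant Kuramochi, where all libraries are at the bottom. Libraries 4 and 5, in which the plasma cell markers are at 0.01 to 0.02, carried it at nearly the level of library 6. In OVSAHO it went from 6.92, 6.96 and 7.0 to 3.52, 3.94 and 4.48, a difference of -2.98 (SE 0.24). In OV-90 it was 4.85 in library 2 and 0.18 in library 3, and 0.06 to 0.07 in resistant libraries, and in EFO-21 it did not exceed 1.93.

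TCHH, trichohyalin, a protein of the inner root sheath of hair, was called in Kuramochi only. There it was 3.51, 4.16 and 4.57 in parental and 8.54, 8.58 and 8.65 in resistant libraries, a difference of 4.50 (SE 0.26), or 22.7-fold higher, and the groups do not overlap. EFO-21 carried TCHH in both forms, at 7.47 to 7.81 in parental and 8.05 to 8.35 in resistant libraries. OVSAHO was at 3.92 to 5.61 and OV-90 at 2.90 to 3.68 over both forms. RPTN, repetin, another fused-type gene of the locus outside the list, was at most 1.97 in parental Kuramochi and 4.78 to 6.30 in resistant Kuramochi, and was listed at 0 in parental EFO-21 and at 4.18 to 5.64 in resistant EFO-21.

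HRNR, hornerin, was called in 3 lines in unlike directions. It was higher in resistant EFO-21 (6.42, 6.78 and 6.82 against 4.37, 4.52 and 4.70), a difference of 2.15 (SE 0.15). It was also higher in resistant Kuramochi (4.33, 5.20 and 5.81 against 2.39, 3.24 and 3.65), a difference of 2.02 (SE 0.48) that lost its call without resistant library 16. It was lower in resistant OVSAHO (2.57, 3.18 and 3.31 against 5.72, 5.92 and 6.54), a difference of -3.04 (SE 0.30). In OV-90 it was 5.18 in library 2 and 0.18 in library 3, and 0.06 to 0.07 in resistant libraries.

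FLG2, filaggrin 2, a component of the outer skin barrier, was called in 2 lines. It was listed at 0 in all 3 parental EFO-21 libraries and at 7.37, 7.41 and 7.81 in the resistant ones. No fold is given against values of 0. In OVSAHO it went the other way, from 6.45, 6.66 and 6.77 to 4.43, 4.58 and 5.03, a difference of -1.94 (SE 0.18). In Kuramochi it was 0.01, 0.03 and 2.52 in parental and 1.97, 2.12 and 2.40 in resistant libraries, and the groups overlapped. FLG2, HRNR and TCHH each rest on 1 exon in the table, with a mean of log2 values in place of the robust model.

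FLG, filaggrin, which bundles keratin filaments in the skin, was not called in any line. OVSAHO carried it at 9.11, 9.61 and 9.99 in parental and 8.99, 9.56 and 9.67 in resistant libraries. In Kuramochi it was scattered within both groups, at 2.23, 4.20 and 5.48 in parental libraries 6, 5 and 4 and 4.84, 6.67 and 7.71 in resistant ones. Without parental library 4, FLG and FLG2 were called higher in resistant Kuramochi, which raised its count of called genes to 12. OV-90 was at 2.21 to 3.11 and EFO-21 at 0.49 to 1.04. FLG, FLG2, HRNR and CRNN all lie inside the span of CCDST, a long non-coding RNA also named FLG-AS1 that is transcribed from the opposite strand (chr1:152140601-152417932, GRCh37). CCDST was looked up after the FLG values were seen.

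CCDST ran close to FLG by line. It was 10.02 to 10.55 in parental and 8.84 to 9.17 in resistant OVSAHO, and 4.25 to 5.76 in parental and 6.37 to 7.22 in resistant Kuramochi. OV-90 was at 0.18 to 2.80 and EFO-21 at 0.00 to 1.28. In resistant OVSAHO CCDST was called lower (difference -1.3), as were FLG2, HRNR and CRNN, while FLG differed by -0.16 and was not called. In resistant Kuramochi CCDST was called higher (difference 2.14), as was HRNR, while CRNN was called lower. Across the 23 libraries, which cluster by line, Pearson's r with FLG was 0.97, against 0.71 for CRNN, 0.36 for FLG2 and 0.20 for HRNR. FLG2 in resistant EFO-21 was at 7.37 to 7.81 where CCDST was at 0.00 to 0.62. The library kit keeps strand, but whether counting used it is not given in the sources used here, so reads of FLG and of CCDST cannot be told apart.

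**Figure D5:**
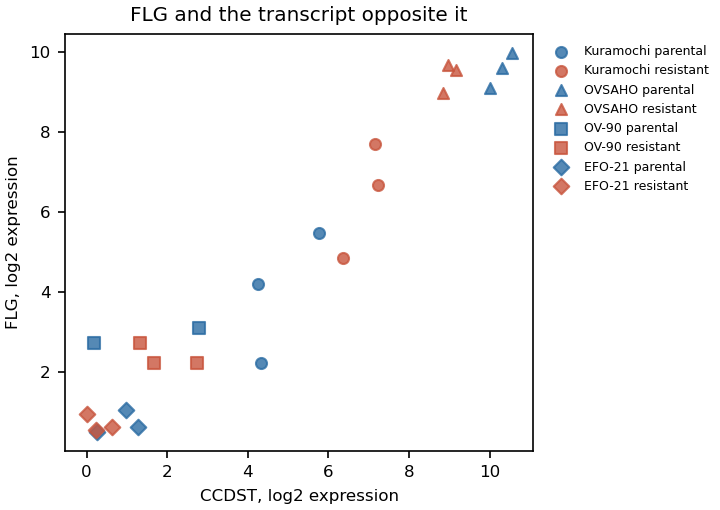
Log2 expression of FLG against CCDST, the transcript on the opposite strand, with 1 point for each of the 23 libraries, a shape for each line, and blue for parental and red for resistant. The OVSAHO libraries lie above 8.8 on both axes, and the EFO-21 libraries lie below 1.3 on both.

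The SPRR2 genes had 3 patterns. EFO-21 listed SPRR2A and SPRR2E at 0 in all 6 libraries, and SPRR2D at 0 except 0.74 in library 24. OV-90 carried all 3, and SPRR2E was 8.43 and 7.58 in parental and 5.98, 6.30 and 6.58 in resistant libraries, called lower by a difference of -1.72 (SE 0.32). SPRR2A was 6.72 and 4.85 in parental and 4.07, 4.27 and 4.38 in resistant OV-90, and SPRR2D was 6.13 and 4.69 against 0.06, 2.78 and 3.03. SPRR2F fell alongside in OV-90, by 1.13 on the log2 scale (SE 0.13).

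In Kuramochi and OVSAHO the SPRR2 genes were high in the libraries with all 5 plasma cell markers above the bottom and low in the others. Within parental OVSAHO the order did not match, since the mean of the 3 SPRR2 genes was 5.20, 4.58 and 4.89 in libraries 7, 8 and 9 and that of the plasma cell markers 6.55, 7.19 and 6.81. In parental Kuramochi SPRR2A was 5.95 in library 6 and 0.01 in libraries 4 and 5, SPRR2D was 4.36 against 1.42 and 0.01, and SPRR2E was 5.44 against 0.01 and 0.01. In resistant Kuramochi SPRR2A and SPRR2E were at 0.00 in all 3 libraries, and SPRR2D was 1.32 to 1.97. In OVSAHO SPRR2A was 5.25, 5.50 and 6.17 in parental libraries, SPRR2D 3.92, 4.46 and 4.67, and SPRR2E 4.57, 4.71 and 4.74. All 3 were at 0.01 to 0.02 in the resistant OVSAHO libraries, the commonest value, so the calls there have no measured fold. SPRR2B, which shares most bases with SPRR2A, had the same pattern, at 4.29 to 5.57 in parental and 0.01 to 0.02 in resistant OVSAHO.

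The 3 neighbours changed little. CHTOP, an mRNA export factor, stayed between 8.65 and 9.45, SNAPIN, a protein of vesicle fusion, between 8.36 and 9.42, and ILF2, an RNA-binding protein, between 10.28 and 10.87 over all 23 libraries. None of the 3 was called in any line or in any contrast between parental lines.

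Genes of cornification outside the locus were listed separately, and 17 of 19 were measured. Their median difference was -0.95 in Kuramochi, -1.05 in OVSAHO, -0.42 in OV-90 and -0.13 in EFO-21. The shares called were 52.9%, 41.2%, 29.4% and 23.5% in that order, beside 22.5%, 7.76%, 16.1% and 14.3% of all genes. As this and the following lists were chosen with earlier results known, nothing is read from such shares. In resistant Kuramochi 7 were called lower and 2 higher, and in resistant OVSAHO 7 were lower and none higher. TGM1, the transglutaminase that cross-links the envelope, fell in both, from 6.66 to 6.85 down to 3.18 to 3.28 in Kuramochi (difference -3.55, SE 0.14) and from 5.35 to 5.49 down to 3.86 to 4.07 in OVSAHO (difference -1.47, SE 0.12). TP63, the master regulator of basal squamous cells, was 3.46 to 5.09 in parental and 1.60 to 2.44 in resistant Kuramochi, and 4.14 to 4.47 against 1.11 to 2.28 in OVSAHO.

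In OV-90, 3 of the 17 were higher and 2 lower, with KLF4, a regulator of barrier formation, at 8.63 and 9.27 in parental and 10.11 to 10.22 in resistant libraries. In EFO-21, 1 was higher and 3 lower. TGM3, a transglutaminase of hair and upper epidermis, fell from 8.18 to 8.39 in parental to 3.81 to 4.22 in resistant EFO-21 (difference -4.22, SE 0.13), where S100A9 also fell and FLG2 appeared. ZNF750, a regulator of epidermal differentiation, was lower in resistant Kuramochi and OVSAHO and higher in resistant EFO-21, at 3.23 to 4.86 against 0.78 to 1.86.

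Of 15 measured keratinocyte markers, 9 were called lower in resistant Kuramochi, 10 in OVSAHO, 1 in OV-90 and 4 in EFO-21, and none was called higher in any line. Their median difference was -2.15, -2.52, -1.57 and -0.44. Of these markers, 60%, 66.7%, 6.67% and 26.7% were called, beside 22.5%, 7.76%, 16.1% and 14.3% of all genes. Part of this group did not follow the plasma cell markers. KRT5 was 5.73 and 5.75 in Kuramochi libraries 4 and 5, 7.13 in library 6 and 0.20 to 0.36 in the resistant libraries, and KLK7, a skin protease, was 6.23 to 6.64 against 0.85 to 0.96. KRT6B and KRT14, in contrast, were above 6 in library 6 and at most 2.37 in libraries 4 and 5.

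The other marker lists moved as follows, beside 22.5% of all genes called in Kuramochi, 7.76% in OVSAHO, 16.1% in OV-90 and 14.3% in EFO-21. All 5 plasma cell markers and all 3 erythroid markers were called lower in resistant OVSAHO, and 3 of the 5 plasma cell markers were called higher in resistant EFO-21, where the highest reached 2.35. Of 8 squamous mucosa markers, 1 was higher and 4 lower in Kuramochi, 3 were lower in OVSAHO, 1 was higher and 1 lower in OV-90, and 1 was higher and 2 lower in EFO-21. Of 8 sweat and salivary gland markers, 1 was higher and 2 lower in Kuramochi, 1 was lower in OVSAHO, 1 in OV-90 and 3 in EFO-21. Of the 13 ovarian carcinoma markers, 8 were lower in resistant Kuramochi, among them EPCAM (6.27 to 6.59 against 2.48 to 2.85), and 5 in OVSAHO, while 1 was higher in OV-90 and 1 in EFO-21. The Kuramochi S100 differences therefore stand beside lower epithelial markers in the same libraries, and no relation between them was tested.

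Of 10 binding partners and receptors of S100 proteins, 1 was called in Kuramochi, 1 in OVSAHO, 2 in OV-90 and 0 in EFO-21. These are 10%, 10%, 20% and 0% of the list, beside 22.5%, 7.76%, 16.1% and 14.3% of all genes. TLR4, a receptor for S100A8 and S100A9, was 0.03 to 2.90 in parental and 6.28 to 6.71 in resistant Kuramochi, and 8.23 and 8.54 in parental and 5.16 to 6.08 in resistant OV-90. TLR4 was also the gene called in OVSAHO, lower in resistant libraries, at 0.01 to 0.02 against 1.79 to 3.92. The resistant OVSAHO values are at the bottom, so no fold is given. ANXA1, which binds S100A11, was 9.93 and 10.08 in parental and 8.26 to 8.37 in resistant OV-90, a difference of -1.68 (SE 0.08). ANXA2, which binds S100A10, was not called in any line. Among S100 genes of other chromosomes, S100P was 13.66 to 14.27 in OV-90 and at most 5.91 elsewhere.

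The parental lines were also set against each other, each line's mean against the mean of the other 3 line means over the 11 parental libraries. These 4 contrasts share their libraries, and as the genes were chosen with the same parental values known, calls and differences are given as a description without p-values. Of the 24 genes, 11 were called for Kuramochi (8 higher and 3 lower; 36.0% of all genes were called), 11 for OVSAHO (8 higher and 3 lower; 38.8%), 15 for OV-90 (5 higher and 10 lower; 45.7%) and 13 for EFO-21 (5 higher and 8 lower; 41.1%). The members' shares were 45.8%, 45.8%, 62.5% and 54.2%, in the same order. Without libraries 2 and 6, a setting chosen after seeing the data, the counts were 14, 14, 20 and 14. Library 3 is then the only parental OV-90 library, and it is assumed to vary like the libraries of the other lines.

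Parental Kuramochi was called higher than the mean of the other lines for S100A1, S100A2, S100A3, S100A4, S100A5, S100A6 and S100A10. For S100A1, S100A5 and S100A6 its libraries did not all lie above those of every other line. S100A1 averaged 12.69 in OVSAHO and 12.44 in Kuramochi, S100A5 6.66 and 5.62, and S100A6 14.20 and 14.28. S100A2 averaged 12.43 ± 0.16 (SD, n = 3) in Kuramochi against 8.20 for the mean of the other lines, a difference of 4.23 (SE 0.28). Parental OV-90 was lower at 8 of the 13 S100 genes. S100A1 averaged 3.96 ± 0.07 (SD, n = 2) against 11.67 in the other lines, and S100A16 averaged 5.34 ± 0.57 (SD, n = 2) against 10.39. S100A14 and S100A10 were called higher in OV-90, with S100A14 at 8.70 ± 0.33 (SD, n = 2) against 4.87. S100A10 averaged 14.85 in OV-90 and 15.16 in Kuramochi, so it was not highest in OV-90.

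Parental OVSAHO was lower for S100A9, S100A10 and S100A11, though its S100A9 values overlapped those of other lines. It was higher for S100A1 (difference 3.94, SE 0.06) and S100A5 (difference 3.12, SE 0.22), with every OVSAHO library above those of the other lines. It was also higher for FLG, which averaged 9.57 ± 0.44 (SD, n = 3) against 2.53 in the other lines. The higher calls of FLG2, HRNR, CRNN, SPRR2A and SPRR2D in OVSAHO stand beside a plasma cell marker mean of 6.55 to 7.19 in all 3 libraries. Whether RNA of other cells has a part in these calls was not tested. SPRR2A and SPRR2D averaged more in OV-90, at 5.79 and 5.41, than in OVSAHO, at 5.64 and 4.35. Parental EFO-21 was higher for S100A9, at 13.17 ± 0.08 (SD, n = 3) against 2.58 in the other lines (difference 10.58, SE 0.37), and for S100A2, S100A8, S100A16 and TCHH. S100A2 averaged 10.78 in EFO-21 and was highest in Kuramochi.

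In order of parental level, S100A9 was highest in EFO-21, while Kuramochi (2.68 to 3.35), OVSAHO (2.34 to 3.12) and OV-90 (0.99 and 3.07) overlapped. S100A4 ran from Kuramochi (11.48 to 11.86) to OVSAHO (9.11 to 9.35), EFO-21 (8.79 to 8.97) and OV-90 (4.47 and 5.13), with no overlap between neighbours. S100A14 ran from OV-90 (8.47 and 8.94) to Kuramochi (5.37 to 6.11) and OVSAHO (5.18 to 5.68), which overlapped, and EFO-21 (3.15 to 3.60). FLG2 ran from OVSAHO (6.45 to 6.77) to OV-90 (0.18 and 3.92), Kuramochi (0.01 to 2.52), which overlapped, and EFO-21, listed at 0.

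The genes most like these in pattern were picked by Pearson's r over the 23 libraries, as a description, since libraries of 1 line are alike. For the mean of the 8 fused-type and SPRR2 genes, the 10 nearest of all other genes were POLR2J2 (r = 0.88), IGLC3, IGLC2, IGHG1, IGHG2, KRT14, TPRN, INO80B-WBP1, KRT6B and IGHG3 (r = 0.85). Thus 5 of the 10 encode immunoglobulin chains and 2 encode keratins. For S100A9, LRCOL1, TCL1B, SPNS3 and TMEM273 were among the nearest (r = 0.98), a pattern set by the EFO-21 libraries. For FLG2 they were TMEM72 (r = 0.91), IGHE, FAM66E, THSD7B and C2orf92, and for S100A8 they were MCUR1 (r = 0.81), PF4, NME7, GTSF1 and SNHG29.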

How the data were processed

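Total RNA of 23 cultures was made into stranded mRNA libraries and read as 150-base pairs. The authors aligned reads to GRCh37/hg19, dropped exons with few reads, and made gene values with a robust linear model (16448 genes, or a mean of log2 exon values for 5210 genes). The deposited numbers are expression on the log2 scale after the authors' quantile normalization. The deposited exon weights of the model and the marks of how a value was made were not used in tests. No counts or library totals are given, so depth is unknown, and only the spread within groups gives precision. Quantile normalization hides a shift common to most genes.

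Columns carry a library number, the line and resistance, but no replicate number. No column belonged to other samples (0 columns). Genes are given by NCBI Gene ID, and 20745 of 21658 (95.8%) were named from RefSeq. Groups were compared with limma 3.58.1 in R 4.3.3 (lmFit, then eBayes with a trend of variance on mean, no filter, no pseudocount, two-sided, Benjamini-Hochberg over all genes), within each line for resistant against parental, and over 11 libraries for parental lines. Differences were called at an adjusted p under 0.05 and 2-fold. The fits were tested on simulated data. The exact test of single genes with 3 against 3 libraries cannot reach 0.05 and was not used. Other settings were no trend, a filter at the 25th percentile, recentring, other fold thresholds, a joint fit of all libraries and leaving out each library.

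The members and gene lists were chosen with earlier results of these data known. Values in every library are given for members called in a line whose higher group mean exceeds 5.81, the median of all gene means, or that differ by over 2 within a group. From each other list at most 5 genes were named by level or change, with further genes of a list named where a result turned on them. A gene like S100A9 in pattern is not reported here. Positions are from GENCODE on GRCh37 and sequences from GRCh37.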

Additional observations from a re-analysis of the deposited data

Results flagged for a closer look

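HRNR and FLG2 were called in opposite directions in different lines, with every resistant library of a line on the same side of its parental libraries. The resistant minus parental difference of HRNR was 2.02 in Kuramochi and 2.15 in EFO-21 but -3.04 in OVSAHO. FLG2 averaged 7.53 in resistant EFO-21, where parental libraries list it at 0, while its difference was -1.94 in OVSAHO. In OVSAHO the mean of the plasma cell markers was 6.55 to 7.19 in parental and 0.02 to 0.48 in resistant libraries. Whether RNA of other cells has a part in the OVSAHO differences was not tested. A high level of these markers cannot be told apart from the parental state there. The difference between the lines was not tested.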

How the results depend on the processing

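Numbers of members called between resistant and parental libraries stayed within 1.5 times the reported count without a mean-variance trend, after recentring the libraries and at 1.5-fold in all 4 lines. With no fold threshold they were 16 in OVSAHO, 4 in OV-90 and 13 in EFO-21. With genes above the 25th percentile alone, the count was 6 in OVSAHO and 8 for parental EFO-21, where the members below the filter were not tested. A joint fit of all 23 libraries gave 7 in OV-90, with SPRR2E no longer called, and no fold threshold gave 18 for parental OVSAHO. Leaving out each library in turn gave 9 to 12 in Kuramochi, 10 in OVSAHO throughout, 0 to 10 in OV-90 and 4 to 5 in EFO-21, and 9 to 13, 9 to 12, 13 to 17 and 12 to 14 for parental Kuramochi, OVSAHO, OV-90 and EFO-21. The value of 10 in OV-90 came without parental library 3, when the lone parental library is assumed to vary like the resistant ones. The 26 called differences of single members were followed through other settings, which gave 253 values, each of 1 member in 1 setting. None of the 253 reversed, and 8 lost a call, in HRNR of Kuramochi and in S100A14 and SPRR2E of OV-90. Taking the bottom at the 25th percentile of a library raised the number of members with all libraries there in each of the 8 groups. A higher cut cannot lower this number, so nothing is read from the direction. The cause of the shifts in the numbers called was not tested. No paired analysis was possible because the columns carry no replicate number. Depth is unknown and sets no limit that can be stated here.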
